A study of Mus musculus with 36 samples.

Results

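The 9 genes described here encode BPI fold-containing proteins: Bpifa1, Bpifb1, Bpifb2, Bpifb3, Bpifb4, Bpifb5, Bpifb6, Bpifb9a and Bpifb9b. They were taken by symbol, after each entry of the deposited tables had been matched to a gene symbol and the entries of a symbol had been summed, and they are 9 of the 24690 genes with a symbol. The 9 genes had 10 entries, since Bpifb1 was listed as a pair of transcripts with different start sites. In the deposited mm9 coordinates all of them lie on chromosome 2, in the order Bpifb2 (chr2:153700781-153721006), Bpifb6 (chr2:153726124-153738529), Bpifb3 (chr2:153743966-153758732), Bpifb4 (chr2:153766598-153789588), Bpifa1 (chr2:153968616-153974953), Bpifb1 (chr2:154016554-154046079), Bpifb5 (chr2:154049478-154066638), Bpifb9a (chr2:154083615-154096979) and Bpifb9b (chr2:154132980-154146378).

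RNA was sequenced from the main olfactory epithelium (MOE), the vomeronasal organ (VNO) and the olfactory bulb (OB) of C57BL/6 mice, with no transgene or drug in any group. After weaning at 3 weeks of age, animals lived 4 to a cage until the age of 6 months, either only with their own sex (sex-separated) or with both (sex-combined). By the study's methods, sex-separated cages stood in rooms that held only that sex, and pups born in sex-combined cages were euthanized soon after birth. Females are written SF when they lived apart and CF when they lived with males, and males are written SM and CM in the same way, and each of these 4 groups had 3 libraries per tissue, 36 in all. Each library pooled equal amounts of RNA from several mice (2 by the series' design text, another number by the study's methods), so an animal's own level cannot be read from it, and each is whole dissected tissue rather than 1 cell type. All tissues were taken from the same animals, and the sources do not say whether a replicate number stands for the same animals in each tissue.

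Values are FPKM (fragments per kilobase of transcript, relative to the library's mapped fragments), which are scaled by length, so that levels of different genes can be set side by side. Fragments estimated from the deposited confidence limits ran from 3016524 to 5902159 per MOE library and from 3373400 to 6779893 per VNO library. In OB they ran from 3592962 to 6437263 per library. These totals lie below the aligned pairs that the study reports for each library and are not counts of reads. The lowest MOE total was that of MOE-CM3, which by the study also had the smallest share of concordantly aligned pairs. The sex labels held, with Xist at 11.8 to 23.2 FPKM in 18 female libraries (males up to 0.0793 FPKM) and Ddx3y at 6.56 to 16.4 FPKM in 18 male libraries (females up to 0.0209 FPKM). The tissue labels held as well. Cnga2, a channel subunit of olfactory sensory neurons, was at 131 to 259 FPKM in MOE and at most 3.72 FPKM elsewhere, Trpc2, the channel of vomeronasal neurons, at 33.3 to 50.4 FPKM in VNO and at most 1.23 FPKM elsewhere, and Gad1, which makes GABA, at 155 to 208 FPKM in OB and at most 2.09 FPKM elsewhere.

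Proteins of this family are secreted and share a lipid-binding fold with bactericidal/permeability-increasing protein (BPI) and lipopolysaccharide-binding protein (LBP), which recognise bacterial lipopolysaccharide in immune cells and serum. Short members such as BPIFA1 (also called SPLUNC1 or PLUNC) have 1 such domain, and long members such as BPIFB1 (LPLUNC1) have a pair of them. BPIFA1 and BPIFB1 are well known from the mucus of the upper airways, where they are made by surface epithelium and submucosal glands. Bpifb3 (RYA3) and Bpifb4 (RY2G5) were first described in olfactory mucosa, as candidate carriers of hydrophobic odorants in the mucus that covers the sensory cilia. The roles of Bpifb2, Bpifb5, Bpifb6, Bpifb9a and Bpifb9b in the nose are less clear.

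All 9 genes were matched in the RefSeq promoter table for GRCm38.p6, a later build than mm9, with 11 promoters. The 250 bases before the start of Bpifa1, the most abundant member, are shown first, followed by those of both Bpifb1 starts, because MOE and VNO used different Bpifb1 entries. All 3 are read on the plus strand at chr2:154142630-154142879, chr2:154190568-154190817 and chr2:154200130-154200379. Capitals mark the letters TATAA and CCAAT, searched on both strands.
Bpifa1: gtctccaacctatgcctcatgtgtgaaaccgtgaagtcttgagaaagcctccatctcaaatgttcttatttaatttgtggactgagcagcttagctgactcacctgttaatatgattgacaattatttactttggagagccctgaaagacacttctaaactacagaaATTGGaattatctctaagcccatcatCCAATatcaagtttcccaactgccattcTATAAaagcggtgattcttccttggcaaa
Bpifb1 upstream start: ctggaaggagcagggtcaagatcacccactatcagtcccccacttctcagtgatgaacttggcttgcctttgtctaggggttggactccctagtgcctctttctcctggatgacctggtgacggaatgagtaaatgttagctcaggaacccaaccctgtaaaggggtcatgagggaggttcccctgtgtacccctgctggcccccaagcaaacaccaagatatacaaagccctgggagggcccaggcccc
Bpifb1 downstream start: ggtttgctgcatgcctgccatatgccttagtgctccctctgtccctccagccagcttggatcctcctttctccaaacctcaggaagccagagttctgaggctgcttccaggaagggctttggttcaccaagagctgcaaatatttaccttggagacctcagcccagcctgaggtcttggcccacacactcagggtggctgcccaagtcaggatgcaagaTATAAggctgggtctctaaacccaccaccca
Bpifa1 had TATAA 29 bases before its start and CCAAT at 83 and 57 bases before it, the former on the minus strand. At Bpifb1 the downstream start had TATAA 31 bases before it, whereas neither set of letters was in the window before the upstream start. Of the 32851 promoters in the table, 22.8% held TATAA and 33.8% held CCAAT in the same window, so a match describes the letters and is not a site.

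Bpifb9a and Bpifb9b are shown because they are near copies, which bears on how their reads were divided. Their windows are chr2:154257629-154257878 and chr2:154306994-154307243 on the plus strand of GRCm38.p6, and capitals mark bases that differ between them in the alignment, with the 1 gap base inside it.
Bpifb9a: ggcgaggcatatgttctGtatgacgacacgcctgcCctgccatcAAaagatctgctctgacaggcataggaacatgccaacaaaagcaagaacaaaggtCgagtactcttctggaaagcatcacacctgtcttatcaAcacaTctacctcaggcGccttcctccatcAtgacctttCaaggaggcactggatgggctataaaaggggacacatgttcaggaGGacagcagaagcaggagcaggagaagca
Bpifb9b: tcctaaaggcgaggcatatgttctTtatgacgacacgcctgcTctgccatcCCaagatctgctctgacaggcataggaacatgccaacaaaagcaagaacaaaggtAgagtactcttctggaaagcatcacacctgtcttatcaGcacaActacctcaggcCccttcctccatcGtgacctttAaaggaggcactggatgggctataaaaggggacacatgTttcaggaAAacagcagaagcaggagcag
These stretches were identical at 230 of 242 aligned bases, with 12 mismatches, and the starts lie 49365 bases apart. The transcripts were closer still, with 2051 of 2065 aligned bases identical (99.3%). Of the 2016 stretches of 50 bases in the Bpifb9a transcript, 1440 (71.4%) were also in Bpifb9b, and reads were 50 bases long. The division of FPKM between the pair is therefore uncertain, and their summed FPKM is given for the levels and tissue differences that rest on it. Bpifb5, whose start lies 34137 bases before that of Bpifb9a, shared 0 of these 2016 stretches.

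In MOE, 4 members stood among the abundant transcripts of the tissue. Bpifa1 was at 3071 FPKM in its lowest library, 4897 FPKM at the median and 5912 FPKM in its highest, and its median ranked 13 among 24639 genes. Bpifb3 was at 466, 638 and 1017 FPKM in the same order (rank 52), Bpifb6 at 199, 297 and 358 FPKM (rank 82) and Bpifb4 at 59.5, 65.5 and 98.1 FPKM (rank 362). The ranges of these 4 genes over the 12 libraries did not overlap, so the order Bpifa1, Bpifb3, Bpifb6, Bpifb4 held in every pair of libraries. Each varied little over the 12 libraries, with a coefficient of variation of 16.2% for Bpifa1, 22.6% for Bpifb3, 16.0% for Bpifb6 and 16.2% for Bpifb4.

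The other members were lower in MOE or varied more. Bpifb1 was at 4.25, 6.28 and 8.20 FPKM (lowest, median and highest library). Bpifb9b was at 7.08 to 1378 FPKM in the 11 libraries with an estimate (median 34.9 FPKM), Bpifb9a at 1.47 to 1494 FPKM (median 10.9 FPKM) and Bpifb5 at 0.193 to 93.0 FPKM (median 1.22 FPKM). Bpifb9a and Bpifb9b together came to 8.55 to 1743 FPKM. The ranges of neighbours in the order Bpifb4, Bpifb9b, Bpifb9a, Bpifb1, Bpifb5 overlapped. Bpifb2 never passed 0.135 FPKM. The 9 genes together came to 3884 to 7538 FPKM per MOE library, of which Bpifa1 made up 59.9 to 84.8% and Bpifb3 8.10 to 14.9%.

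In VNO, Bpifa1 again led, at 892, 1393 and 1879 FPKM (lowest, median and highest library; rank 28 of 24632 genes). Bpifb1, not Bpifb3, came next, at 38.4, 222 and 787 FPKM (rank 67). Bpifb3 was at 1.55, 5.87 and 30.4 FPKM. The ranges of these 3 genes did not overlap. Bpifb1 and Bpifb3 were far more variable than Bpifa1, with coefficients of variation of 70.1%, 98.8% and 21.5%. Bpifb9a was at 2.67 to 8.34 FPKM, Bpifb5 at 0.758 to 3.56 FPKM, Bpifb9b at 0.0359 to 3.09 FPKM and Bpifb4 at 0.0468 to 0.544 FPKM, and neighbours in this order overlapped. Bpifb9a and Bpifb9b together came to 2.80 to 11.4 FPKM. Bpifb6 was listed at 0 in 10 of 12 VNO libraries (0.304 FPKM in SM1 and 0.164 FPKM in SM2), and Bpifb2 in all 12. The 9 genes together came to 1057 to 2139 FPKM.

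In OB, where no secretory nasal epithelium is found, the 9 genes together came to 0.15 to 14.29 FPKM per library. Bpifa1 was the member most often seen, at 0, 1.58 and 5.74 FPKM (lowest, median and highest library). Bpifb3 stayed at or under 0.552 FPKM, Bpifb4 at or under 0.179 FPKM, Bpifb6 at or under 0.103 FPKM and Bpifb1 at or under 0.0893 FPKM. Bpifb2 was above 0 in 10 of the 36 libraries of all tissues and never rested on more than 3 estimated fragments, so it was not detectable at this depth.

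**Figure D1:**
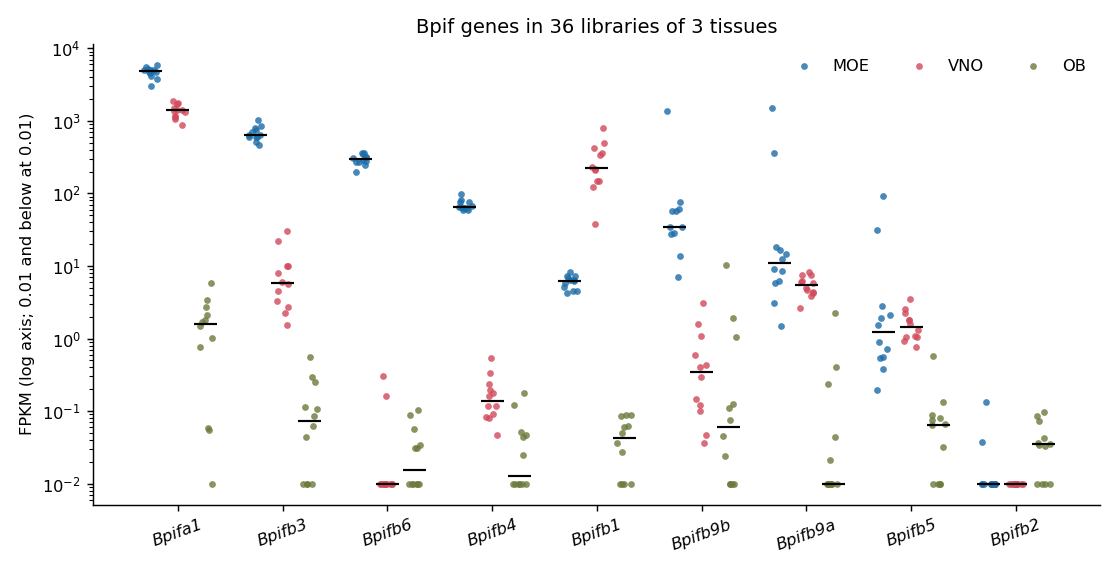
FPKM of the 9 genes (x axis) in each of the 36 libraries, on a log axis; points are libraries coloured by tissue, bars are medians, and values of 0.01 FPKM and below are drawn at 0.01. Bpifa1 was highest in MOE and VNO, Bpifb3, Bpifb4 and Bpifb6 were higher in every MOE library than in any VNO library, and Bpifb1 was higher in every VNO library than in any MOE library.

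Tissues were compared in 1 limma fit over the 36 libraries on log2(FPKM + 0.5), a scale that understates the change of low genes, with Benjamini-Hochberg adjustment over the 14627 genes tested. In bulk tissue, fewer cells of a type and less RNA per cell cannot be told apart, and this holds for every difference between tissues or groups given here. Between MOE and VNO, 5 of the 7 members tested were higher in MOE (background 48.6% of all genes tested) and 1 was lower (background 34.0%). The median difference of the 7 was 1.79 (log2), against 0.15 over all genes tested. Bpifb2, with too low a mean, and Bpifb9b, with a failed estimate in 1 library, were not in this fit.

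Bpifb3, Bpifb4 and Bpifb6, all with low levels in VNO, gave the largest differences toward MOE. Bpifb6 was 9.11 higher in MOE than in VNO (log2; SE 0.0720, limma adjusted p = 4.4e-37), Bpifb4 6.70 higher (SE 0.0726, adjusted p = 6.3e-34) and Bpifb3 6.62 higher (SE 0.188, adjusted p = 1.7e-23). For Bpifb6, whose VNO libraries are nearly all at 0, the value depends on the added 0.5 and gives no fold. The fit gives each gene a single spread over the 36 libraries. For Bpifb6 and Bpifb4 the VNO and OB libraries near 0 vary little and lower that spread. Their SEs and p-values thus do not measure the spread among MOE libraries. The ratio of the MOE to the VNO median FPKM was 472 for Bpifb4 and 109 for Bpifb3. Bpifa1, abundant in both tissues, was 1.79 higher in MOE (SE 0.280, adjusted p = 1.1e-06), a ratio of medians of 3.52. Bpifb1 went the other way, 5.16 lower in MOE on the log2 scale (-5.16, SE 0.211, adjusted p = 1.8e-19), a ratio of medians of 0.0283.

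For Bpifb9a and Bpifb5 the comparison of MOE with VNO changed when 2 libraries were left out, whereas Bpifb9b was higher in MOE with and without MOE-SM3. Bpifb9a was 1.60 higher in MOE (log2; SE 0.679, limma adjusted p = 0.0314), but 0.47 higher with an adjusted p of 0.144 once the libraries MOE-SF2 and MOE-SM3 were left out. The call was also lost without MOE-SF2 (0.87), MOE-SM3 (1.19), MOE-CM3 (1.48) or VNO-SF2 (1.51) alone. Bpifb5 was 0.42 higher (SE 0.521, adjusted p = 0.464), and -0.47 (adjusted p = 0.0496) without the same libraries. Bpifb9b, which could be tested only without MOE-SF2, was then 5.47 higher in MOE (SE 0.529, adjusted p = 1.9e-10), and 5.07 higher (adjusted p = 4.9e-11) without both. The summed FPKM of Bpifb9a and Bpifb9b was 3.58 higher in MOE (log2, SE 0.639, limma adjusted p = 8.5e-06). In MOE-SF2 this sum took the failed Bpifb9b entry as 0 and so held the Bpifb9a entry alone. The sum was not fitted without MOE-SF2 and MOE-SM3 together.

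Against OB, 7 of 7 members tested were higher in MOE (background 45.7%) and 6 of 7 were higher in VNO (background 37.8%). The MOE differences ran from 2.22 for Bpifb5 (log2; SE 0.521, limma adjusted p = 0.00028) to 11.43 for Bpifa1 (SE 0.280, adjusted p = 9.0e-26), with a median of 7.02 against 0.07 over all genes tested. In VNO the largest were 9.64 for Bpifa1 and 8.73 for Bpifb1, followed by 3.47 for Bpifb3, 3.20 for Bpifb9a and 1.80 for Bpifb5. The summed FPKM of Bpifb9a and Bpifb9b, with the failed MOE-SF2 entry again taken as 0, was 6.39 higher in MOE and 2.81 higher in VNO than in OB. Bpifb4, 0.32 higher in VNO (adjusted p = 0.00017), was at most 0.544 FPKM in both tissues, and the call was lost under quantile scaling (0.16, adjusted p = 0.0876). Bpifb6 differed by 0.01 between VNO and OB (SE 0.0720, adjusted p = 0.866).

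**Figure D2:**
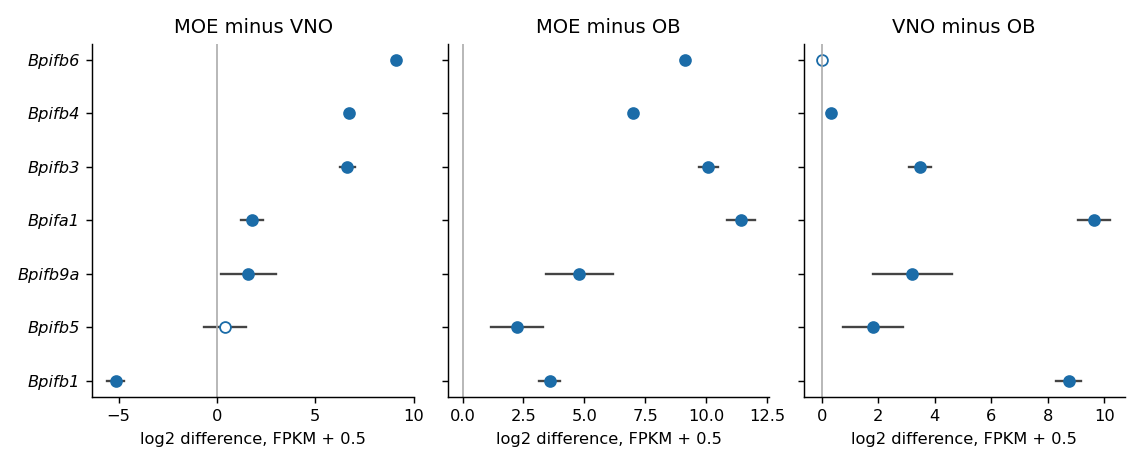
Differences of 7 genes (y axis) between tissues in log2(FPKM + 0.5) on the x axis, 1 panel per pair of tissues, from the fit over 36 libraries; lines are 95% confidence intervals and filled points have an adjusted p under 0.05. Bpifb1 is the member that lies to the left of 0 in MOE minus VNO, at -5.16.

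Other genes of the same fold and of lipopolysaccharide recognition followed another pattern between tissues. Of 8 relatives (Bpi, Lbp, Pltp, Bpifa2, Bpifa3, Bpifa5, Bpifa6 and Bpifc), only Lbp and Pltp, a phospholipid transfer protein, were high enough to be tested, and both were lower in MOE than in VNO (-0.63 and -0.88, log2). Median levels of Lbp were 4.08 FPKM in MOE, 6.33 FPKM in VNO and 0.28 FPKM in OB. Of 11 genes of lipopolysaccharide recognition, 10 were tested and 10 were lower in MOE than in VNO. Of 14 secreted airway defence proteins tested, 1 was higher and 11 were lower in MOE, the latter being the direction of Bpifb1. Sustentacular cell markers, for the supporting cells of olfactory epithelium, were higher in MOE for 7 of 8 and lower for 1. Gland markers were higher for 2 and lower for 6 of 10, and lipocalins and other odorant carriers of nasal mucus higher for 6 and lower for 4 of 10. The part of these cell types in the Bpif differences was not tested.

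The 2 Bpifb1 entries separated the nasal tissues. The transcript with the upstream start was above 0 in 12 of 12 MOE libraries, at 4.25, 5.94 and 8.20 FPKM (lowest, median and highest), and in 0 of 12 VNO libraries. The transcript with the downstream start was above 0 in 12 of 12 VNO libraries, at 38.4, 222 and 787 FPKM, and in 1 of 12 MOE libraries (1.62 FPKM in CM1). The starts lie 9562 bases apart, and both entries end at the same base. How reads were divided between them is an estimate of the authors' program: in the later GENCODE M21 annotation the 2 Bpifb1 transcripts are identical at 1617 of 1633 aligned bases (99.0%), and 1550 of the 1650 stretches of 50 bases in one (93.9%) are also in the other.

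The size of Bpifb1 in VNO carries a further limit. Its FPKM varied 20.5-fold over the 12 libraries, while the fragments estimated from the same entry's confidence limits, 828 to 2166, varied 2.61-fold. The cause was not tested. Differences in Bpifb1 between VNO libraries are given below as the deposited FPKM have them.

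**Figure D3:**
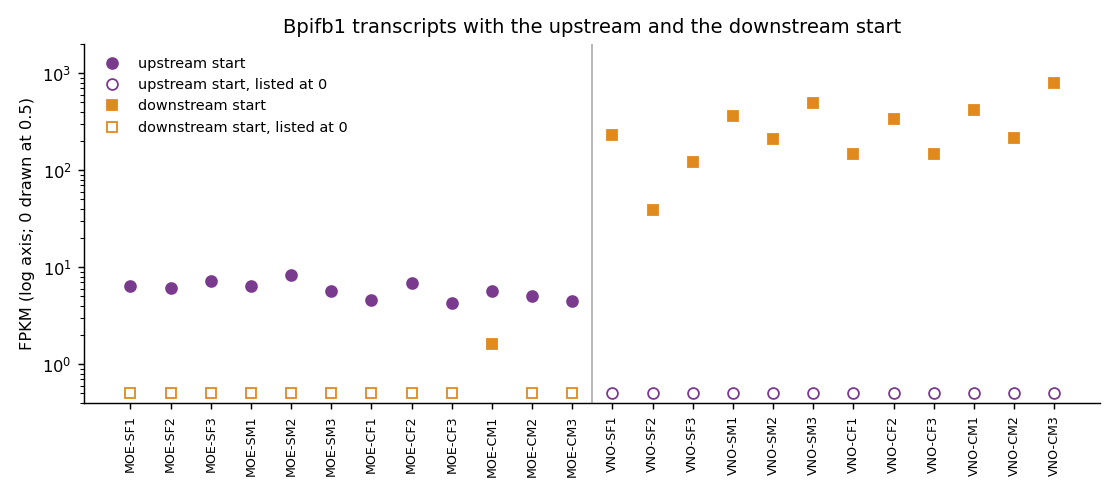
FPKM (log axis) of the Bpifb1 transcripts with the upstream start (purple circles) and the downstream start (orange squares) in each of the 24 MOE and VNO libraries on the x axis; open symbols mark entries listed at 0, drawn at 0.5. The upstream start is above 0 in the 12 MOE libraries, the downstream start in the 12 VNO libraries and in MOE-CM1.

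Within MOE, 2 libraries stood apart from the other 10 in 3 neighbouring genes, one from sex-separated females and one from sex-separated males. Bpifb5 was at 93.0 FPKM in MOE-SF2 and 31.6 FPKM in MOE-SM3, against 0.193, 0.809 and 2.81 FPKM (lowest, median and highest) in the other 10. Bpifb9a was at 1494 FPKM in SF2 and 365 FPKM in SM3, against 1.47, 8.86 and 18.1 FPKM. Bpifb9b was at 1378 FPKM in SM3, against 7.08, 34.9 and 75.8 FPKM, and its estimate failed in SF2, where it is listed at 0. Set against the median of the other 10 libraries, Bpifb5 was 115 times higher in SF2 and 39.1 times higher in SM3, and the summed FPKM of Bpifb9a and Bpifb9b 39.8 times higher in SM3. In SF2 that sum, 1494 FPKM, is the Bpifb9a entry alone, 100% of the pair, whereas the Bpifb9a entry held 20.9% of the pair in SM3. Whether the SF2 entry also holds reads of Bpifb9b was not tested, so 1494 FPKM cannot be read as a level of Bpifb9a by itself.

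The remaining members did not move with these 3. In SF2 and SM3, Bpifa1 was at 3811 and 4515 FPKM, Bpifb3 at 507 and 847 FPKM, Bpifb6 at 274 and 320 FPKM, Bpifb4 at 66.0 and 75.2 FPKM and Bpifb1 at 6.14 and 5.74 FPKM. All of these lay within the range of the other 10 libraries. The other SF libraries were low, with Bpifb9a at 1.47 FPKM in SF1 and 5.82 FPKM in SF3, so the high level was not shared by a group.

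**Figure D4:**
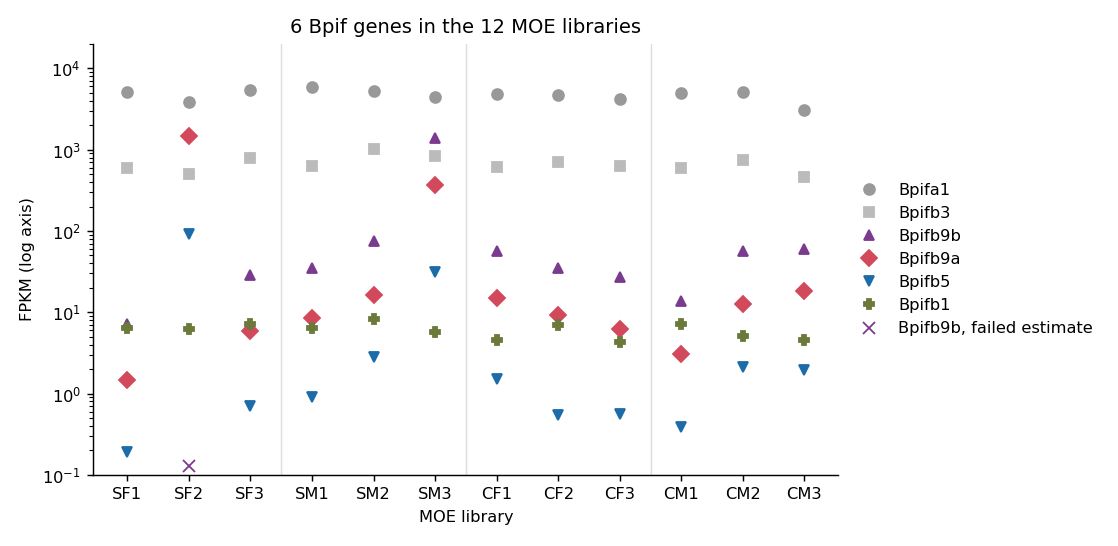
FPKM (log axis) of 6 genes, drawn in 1 panel with a marker for each gene, in the 12 MOE libraries along the x axis. The cross marks the failed Bpifb9b estimate in SF2. SF2 and SM3 stand above the other 10 libraries for Bpifb5 and Bpifb9a, and SM3 for Bpifb9b, but not for Bpifa1, Bpifb3 and Bpifb1.

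Secretory marker genes also differed in these libraries. The summed FPKM of the nasal lipocalin list was 62973 in SF2, where 7 of 10 genes (Lcn11, Obp1a, Obp1b, Obp2a, Obp2b, Mup4 and Mup5) exceeded all 10 other libraries, but 23221 in SM3, within the 14516 to 28032 of the others. The gland list came to 4106 in SF2 and 1596 in SM3, against 824 to 2026, with 4 of 10 and 2 of 10 genes above the others. Lcn11, which is on both lists, made up 3541 FPKM of the gland sum in SF2, and without it the sums were 565, 419 and 302 to 521. Odam, a secreted protein of epithelial attachment that is on the gland list, was at 24.2 FPKM in SF2 and 7.26 FPKM in SM3. It was at most 0.668 FPKM in the other 10 MOE libraries and at 0.266 to 7.09 FPKM in VNO. Sustentacular markers summed to 5108 and 5253 (others 3490 to 6939) and olfactory sensory neuron markers to 1965 and 2705 (others 1730 to 3018), with no sustentacular gene above the others in either library. Sums in SF2, but not SM3, also exceeded the others for airway defence (1405 against 729 to 1210, 5 of 17 genes above, 1 below). Plasma cell markers did so too (81.3 against 36.8 to 68.1, 2 of 7 above, 0 below). Neutrophil markers barely did (357 against 149 to 355, 1 of 9 above, 3 below). Of 11 olfactory sensory neuron genes, 3 lay below the others in SF2 and 0 above. The share of all MOE genes above the other 10 was not computed. The part of gland or other tissue in the Bpif levels was not tested.

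In OB the same pair of genes marked 3 libraries. Bpifb9a and Bpifb9b were at 2.25 and 10.3 FPKM in OB-SM2, at 0.407 and 1.90 FPKM in OB-CM2 and at 0.235 and 1.05 FPKM in OB-CF3, and their sum was at most 0.155 FPKM in the other 9. Bpifb5 was at 0.567 FPKM in OB-SM2 and at most 0.135 FPKM elsewhere in OB. The nasal lipocalin list summed to 171 FPKM in OB-SM2 and 14.4 FPKM in OB-CM2, against 0 to 9.49 in the 9 others, and to 0.750 FPKM in OB-CF3. The part of nasal tissue in these OB values was not tested.

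The share of the pair given to Bpifb9a differed by tissue. It was 16.9 to 22.9% in the 11 MOE libraries with both estimates and 18.0, 18.2 and 17.6% in OB-SM2, OB-CF3 and OB-CM2. In VNO it was 73.0 to 99.4%, so the range did not overlap that of MOE. With most 50-base stretches shared, these shares are estimates of the authors' program.

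Within each tissue, sex was compared under each housing, housing within each sex, and the difference of the sex differences as an interaction. No member passed an adjusted p of 0.05 in any of these 15 limma comparisons, of 7 members tested for MOE, 6 for VNO and 2 for OB. The background was low as well, and leaving out 1 library moved its counts, for instance from 9 genes to between 4 and 16 for SM against CM in MOE. In MOE, 0.102% of genes tested were called for SF against SM, 0.0436% for CF against CM, 0.0509% for SF against CF, 0.0654% for SM against CM and 0.0363% for the interaction. In VNO the shares were 0.0722% and 0.0433% for the sex comparisons and 0% for both housing comparisons and the interaction, in which limma gave 1520, 322 and 728 genes an unadjusted p under 0.05. In OB they were 0.0391% and 0.0469% for sex, 0.00782% for SF against CF, 0% for SM against CM (435 genes with an unadjusted p under 0.05) and 0.00782% for the interaction. Members had an unadjusted p under 0.05 only in VNO, with 2 in SF against SM (Bpifb1 and Bpifb3), 1 in SM against CM and 1 in the interaction. Of the 13849 genes tested in VNO, limma gave 1219 such a p in SF against SM, 322 in SM against CM and 728 in the interaction. In MOE the number was 241 (CF against CM) to 955 (SM against CM) of 13757 genes. In OB it was 358 (SF against CF) to 728 (CF against CM) of 12795 genes. The p-values measure the spread between pools of mice. By the study's RNA integrity numbers, sex-combined VNO libraries were mostly lower than sex-separated ones. The part of RNA quality in the housing comparisons was not tested.

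Bpifb3 in VNO came nearest to a group difference. It was at 4.53, 1.55 and 2.22 FPKM in the SF libraries and at 30.4, 22.0 and 10.1 FPKM in the SM libraries. It was at 7.99, 3.29 and 5.72 FPKM in CF and at 2.69, 9.88 and 6.03 FPKM in CM. All 3 SM libraries were above all 3 SF and all 3 CM libraries, and the CF and CM ranges overlapped. Of all genes tested in VNO, 13.0% were likewise lower in every SF than in every SM library and 3.79% lower in every CM than in every SM library. The SF against SM difference was -2.68 (log2; SE 0.496, 95% interval -3.76 to -1.59, unadjusted p = 0.00017, limma adjusted p = 0.133), and it did not pass the test. The SM against CM difference was 1.70 (SE 0.496, limma adjusted p = 1), and the interaction -2.64 (SE 0.702, unadjusted p = 0.0028, limma adjusted p = 0.895).

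Bpifb1 in VNO was at 228, 38.4 and 123 FPKM in SF and at 365, 208 and 498 FPKM in SM. In CF it was at 148, 334 and 146 FPKM and in CM at 417, 216 and 787 FPKM. The male means of 357 and 473 FPKM were above the female means of 130 and 209 FPKM, but the ranges overlapped under both housings. The differences were -1.71 for SF against SM (log2; SE 0.628, 95% interval -3.08 to -0.33, limma adjusted p = 0.520) and -1.10 for CF against CM (limma adjusted p = 1).

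Bpifb4 was also lower in every SF than in every SM library of VNO, at mean FPKM of 0.11 and 0.36, too low to be tested. In MOE, Bpifb4 was higher in every SM than in every CM library (means 79.4 and 63.0 FPKM), with a limma adjusted p of 0.706, as 13.0% of all genes tested in MOE were.

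Bpifa1 was steadier in VNO, at 1049, 1407 and 1160 FPKM in SF and 1710, 1879 and 1402 FPKM in SM, with overlapping ranges. In CF it was at 1384, 1503 and 892 FPKM and in CM at 1128, 1755 and 1340 FPKM, also overlapping. The summed FPKM of the 9 genes, led by Bpifa1, was 1289 to 1451 in SF and 1917 to 2117 in SM of VNO, with no overlap, while CF (1057 to 1846) and CM (1561 to 2139) overlapped. In MOE the sum was 6093 to 6772 in SF, 6819 to 7538 in SM, 5218 to 5862 in CF and 3884 to 6332 in CM, so that SF lay below SM and above CF, and SM above CM. The sum of 6250 in SF2 held 1494 FPKM listed under Bpifb9a, and that of 7538 in SM3 held 1743 FPKM of Bpifb9a and Bpifb9b. SF2 and SM3 hold their own places in this order only with those high values. With both libraries left out the order was the same, with sums of 6093 and 6772 in SF and 6973 and 6819 in SM. Of all genes tested in MOE, 6.54% lay lower in every SF than in every SM library and 8.26% lower in every CF than in every SF library. These sums were not tested. In MOE the SF against SM difference of Bpifa1 was -0.13 (log2; 95% interval -0.82 to 0.55). The interval is wider still for Bpifb5 and Bpifb9a in MOE, whose SEs were 1.31 and 1.70 with SF2 and SM3 included. Without those libraries, Bpifb9a was -1.81 in SF against SM (SE 0.636, unadjusted p = 0.012, limma adjusted p = 1).

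**Figure D5:**
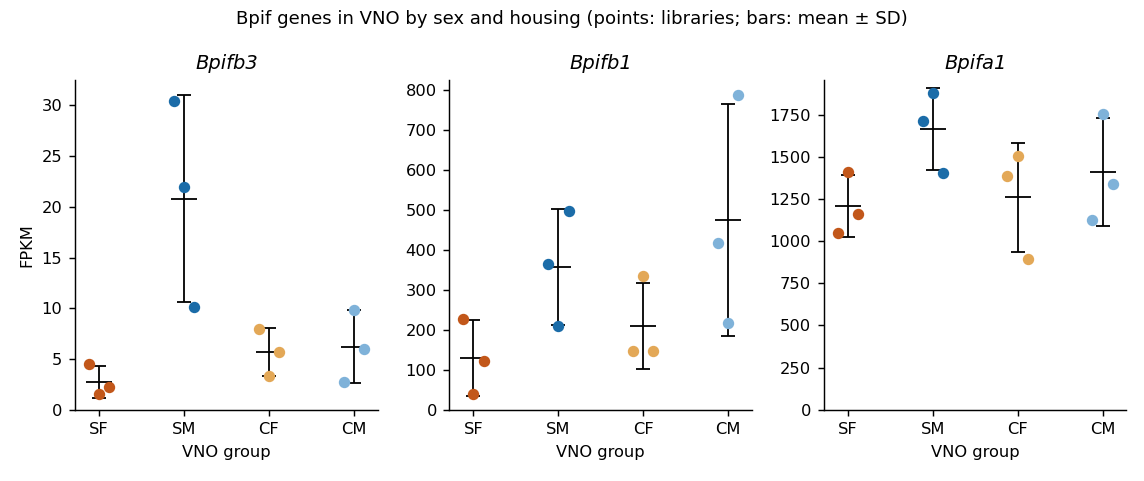
FPKM of Bpifb3, Bpifb1 and Bpifa1 (1 panel each, linear axes from 0) in the 4 VNO groups on the x axis; points are the 3 libraries of a group, bars the mean and error bars the SD. Bpifb3 is higher in the 3 SM libraries than in any SF or CM library, whereas the groups overlap for Bpifb1 and Bpifa1 between the sexes under both housings.

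Marker lists also differed between SF and SM libraries of VNO. Summed FPKM were 4115 to 4434 in SF and 4593 to 5543 in SM for secreted airway defence proteins, 1454 to 1792 and 1905 to 2181 for gland markers, 1081 to 1309 and 1534 to 1681 for neutrophil markers and 78.9 to 80.8 and 95.7 to 127 for plasma cell markers. None of these 4 pairs of ranges overlapped, but Ltf, which encodes lactoferrin, is on the first 3 lists and made up 93.9 to 96.8% of the neutrophil sum in SF. Ltf was at 1039 to 1267 FPKM in SF and 1458 to 1618 FPKM in SM. Without it the sums overlapped for airway defence (2848 to 3238 and 3134 to 3942), gland (338 to 524 and 447 to 579) and neutrophil markers (41.7 to 78.1 and 63.0 to 77.7). By gene, every SF library was below every SM library for 4 of 17 airway defence, 4 of 10 gland, 5 of 9 neutrophil, 2 of 7 plasma cell, 2 of 10 lipocalin, 4 of 8 sustentacular, 5 of 11 olfactory sensory neuron and 0 of 10 ciliated cell genes, and above for 1, the airway defence gene Defb1. Over all genes tested in VNO the share below was 13.0%. Sums overlapped for sustentacular markers (522 to 619 and 569 to 736), olfactory sensory neuron markers (145 to 173 and 170 to 211) and ciliated cell markers (89.1 to 126 and 102 to 125). Cyp2g1, a sustentacular enzyme, was at 3.17 to 11.3 FPKM in VNO against 358 to 614 FPKM in MOE. The part of these cells in the Bpifb3 and Bpifb1 values was not tested.

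For the members named below, the genes with the most similar values were sought over the 12 libraries of the tissue where its mean was highest, by Pearson's r of log2(FPKM + 0.5), as a description without a test. In VNO the genes most like Bpifb1 were Gp2, a glycoprotein of secretory and antigen-sampling epithelium (r 0.975, n = 12), Sbpl, a spermine-binding protein-like gene (r 0.961), and Wfdc12, a secreted WAP domain protein (r 0.942). Only 6 of 13606 genes had an r over 0.9 with Bpifb1. Gp2 ran from 12.8 to 92.7 FPKM, Sbpl from 50.3 to 981 FPKM and Wfdc12 from 0.929 to 6.14 FPKM in VNO.

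In MOE, Bpifb5 and Bpifb9a were most like each other (r 0.988, n = 12), followed in both by Cabs1 (r 0.971 and 0.974) and Odam (r 0.961 and 0.947). Bpifb9b, over 11 libraries, was nearest to Bpifb9a (r 0.997), Bpifb5 (r 0.978) and Cabs1 (r 0.951). In SF2 and SM3 Cabs1 was at 66.6 and 14.3 FPKM, and it was at most 0.752 FPKM in the other 10. Without SF2 and SM3, r with Cabs1 was 0.72 for Bpifb5, 0.91 for Bpifb9a and 0.91 for Bpifb9b, and r with Odam was 0.50 for Bpifb5 and 0.39 for Bpifb9a.

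The steadier members had many near equals and thus no particular partner. Bpifa1 was nearest to Wdr4, BC003965 and Get3 (r 0.98, 0.97 and 0.97), with 478 of 13523 genes over 0.9. For Bpifb3 these were Trappc9, Kif1a and Abca3 (r 0.97 each; 113 genes over 0.9), and for Bpifb6 Clcn5, Ss18 and Morc2a (r 0.97, 0.97 and 0.96; 202 genes). Libraries share one scaling, so an r of this kind also holds what moves all genes of a library.

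Among the members themselves, 36 pairs were compared over the 12 libraries of a tissue, 21 in MOE and 15 in VNO, with permutation tests of 100000 resamples and Benjamini-Hochberg adjustment. By Pearson's r, 6 pairs passed, and by Spearman's rho 1. Without MOE-SF3, MOE-SM2 or MOE-CM3 in turn, 1 pair passed by Pearson's r. MOE-CM3 was the MOE library with the fewest estimated fragments. The share of all gene pairs that would pass was not computed, and these r also hold what moves all genes of a library. In MOE, at least 113, 202 and 478 of 13523 genes had a higher r with Bpifb3, Bpifb6 and Bpifa1 than any member tested had. For pairs that hold any of these genes, a pass is thus not particular to the family. In MOE, Bpifb3 and Bpifb6 had r 0.78 (permutation adjusted p = 0.032) and rho 0.76 (adjusted p = 0.091), and r 0.65 without the 2 libraries farthest from the median. Bpifb3 and Bpifb4 had r 0.78 (adjusted p = 0.032; rho 0.59, adjusted p = 0.16; r 0.62 without 2 libraries, permutation tests). Bpifb1 and Bpifb4 had r 0.73 (permutation adjusted p = 0.034; rho 0.66, adjusted p = 0.14; r 0.69 without 2 libraries). Bpifa1 and Bpifb6 had r 0.77 (permutation adjusted p = 0.034; rho 0.68, adjusted p = 0.13), which fell to r 0.43 without SF2 and CM3 and so rests on those libraries. In VNO, Bpifb5 and Bpifb9a had r 0.76 (permutation adjusted p = 0.034; rho 0.74, adjusted p = 0.091; r 0.67 without 2 libraries).

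The sixth pair, Bpifb5 and Bpifb9a in MOE, falls into clusters, so it was computed within the 10 libraries other than SF2 and SM3, a choice made after the values were seen. There Bpifb5 and Bpifb9a had r 0.896 (permutation p = 0.00033, adjusted over 3 pairs 0.00033), rho 0.855 (p = 0.00298), and r 0.926 without the 2 farthest libraries. Bpifb5 and Bpifb9b had r 0.917 (permutation p = 2e-05, adjusted 3e-05) and rho 0.927. Bpifb9a and Bpifb9b, which share reads, had r 0.990 (permutation p = 1e-05, the smallest that the resamples can give) and rho 0.964. In these 10 libraries Bpifb9a ran from 1.47 FPKM in SF1 and 3.09 FPKM in CM1 to 16.4 FPKM in SM2 and 18.1 FPKM in CM3, and Bpifb5 from 0.193 and 0.385 FPKM to 2.81 and 1.94 FPKM in the same libraries. So r stayed high for Bpifb5 and Bpifb9a in these 10 libraries. SF2 and SM3 were left out for the values of these same genes, so the p-values describe the 10 libraries only. The pairs of Bpifb5 with Bpifb9a and with Bpifb9b are not separate results, since Bpifb9a and Bpifb9b share reads. The share of all gene pairs with such an r in these libraries was not computed.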

How the data were processed

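The authors aligned reads from ribosome-depleted, stranded total RNA libraries to mm9 and deposited 1 table per library of FPKM values with 95% confidence limits; per the labels TopHat2 2.1.0, Cufflinks 2.2.1.0 and Cuffdiff were used. Entries were matched to symbols (99.73%), and FPKM of a symbol were summed. A gene with a failed entry was left out of the fits, which removed Bpifb9b in MOE. The summed FPKM of Bpifb9a and Bpifb9b was fitted with that failed entry as listed, at 0. Standard errors were read from the confidence limits and turned into estimated fragments, with a floor of 3. The estimate takes the limits as counting error only, so it is not a count of reads, and it leaves out the spread between pools. limma 3.58.1 in R 4.3.3 was fitted to log2(FPKM + 0.5) where a gene's mean FPKM reached 0.5, per tissue (12 libraries, 4 groups) and over all 36 libraries, and the script was tested on simulated data. An adjusted p under 0.05 was called. All members were named, with called genes of the lists and the 3 genes most like each member (those for Bpifb4 are not reported here); Cnga2, Cyp2g1, Odam and the lipocalins of MOE-SF2 were named after their values were seen. The members and lists were chosen with earlier results of these data known. Sequences were read with Python 3.11.15 and Biopython 1.88.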

Additional observations from a re-analysis of the deposited data

How the results depend on the processing

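Alternatives were another pseudocount (0.1 or 1), no or a higher filter on low values, upper quartile or quantile scaling, fits to 6 libraries, a replicate block and leaving out each library. The sum of Bpifb9a and Bpifb9b and the omission of both MOE-SF2 and MOE-SM3 were added after seeing the data. No member was called in the 15 comparisons within tissues under any of 317 alternatives, and the Bpifb3 difference of SF and SM in VNO stayed between -3.12 and -2.34 (adjusted p 0.081 to 0.548). The numbers of members called, 6 in MOE against VNO, 7 in MOE against OB and 6 in VNO against OB, were 5 to 6, 7 to 8 and 6 to 6 when 1 library was left out. Bpifb9a in MOE minus VNO was called in 37 of 44 alternatives and lost under upper quartile scaling (1.36), quantile scaling (1.31) and without MOE-SF2 (0.87), MOE-SM3 (1.19), MOE-CM3 (1.48), VNO-SF2 (1.51) or both MOE libraries (0.47). Bpifb5 in MOE minus VNO reversed without MOE-SF2 (-0.14; -0.14 to 0.74 over single libraries left out) and without both (-0.47). Bpifb6 in VNO minus OB reversed with a pseudocount of 0.1 (-0.031), quantile scaling (-0.072) and without VNO-SM1 (-0.026; -0.026 to 0.059 over single libraries left out). Bpifb4 in VNO against OB was 0.16 under quantile scaling (adjusted p = 0.0876). The number of correlated pairs, 6, ran from 1 to 7 when 1 library was left out, with 1 without MOE-SF3, MOE-SM2 or MOE-CM3. The cause of these changes was not tested.

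Deviations of same-numbered libraries had median correlations of 0.026 (MOE), 0.079 (VNO) and -0.004 (OB). Those of different-numbered libraries had medians of -0.0090, -0.043 and 0.0056 in the same order. Whether the replicate numbers pair the samples was not tested. Libraries of the same group and number in different tissues, which may or may not hold the same animals, had median correlations of 0.060 (MOE and VNO), 0.0023 (MOE and OB) and -0.023 (VNO and OB). With a replicate block (group and number in the comparisons of tissues) the members called stayed at 0 within tissues and at 6, 7 and 6 between tissues, and genes called for SF against CF in MOE went from 7 to 11. With only the 6 libraries compared in the fit, genes called went from 6 to 16 (CF against CM) and 9 to 45 (SM against CM) in MOE, 6 to 11 (CF against CM) and 0 to 5 (SM against CM) in VNO, and 5 to 8, 6 to 12, 1 to 4 and 0 to 2 in OB (SF against SM, CF against CM, SF against CF, SM against CM). Without a filter on low values they went in MOE from 14 to 8 (SF against SM), 7 to 2 (SF against CF), 9 to 3 (SM against CM) and 5 to 2 (interaction), and in VNO from 0 to 1 for SF against CF and the interaction. Scaling moved the median of all genes in MOE against VNO from 0.15 to between -0.06 and 0.18, and in VNO against OB from -0.12 to between -0.18 and 0.16. Without single libraries the counts of genes called ran in MOE from 4 to 12 for SF against CF, 4 to 16 for SM against CM and 3 to 11 for the interaction, and in VNO from 5 to 12 for SF against SM, 0 to 4 for SF against CF, 0 to 2 for SM against CM and 0 to 3 for the interaction. In OB they ran from 6 to 9 for CF against CM, 1 to 3 for SF against CF, 0 to 2 for SM against CM and 1 to 4 for the interaction. Depth limits Bpifb2 in every tissue, Bpifb4 and Bpifb6 in VNO and most OB levels, and 3 libraries a group limit every comparison of sex and housing.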
